A study of Mus musculus with 11 samples.

Results

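The chromatin of natural killer T (NKT) thymocytes was set against that of CD4 single-positive (CD4SP) thymocytes across the genome, from the peaks called in 2 NKT and 2 CD4SP ATAC-seq libraries. Overlapping peaks of the 4 libraries (1 bp or more) were joined into intervals. An interval with a peak in both NKT libraries and in neither CD4SP library was called NKT-gained, the reverse CD4SP-gained, and an interval with a peak in all 4 shared. After 16 intervals at the Zbtb16 locus (the gene and 20 kb on each side) were left out, 48241 intervals remained, of which 3115 (6.46%) were NKT-gained, 2508 (5.2%) CD4SP-gained and 24493 (50.8%) shared. The other 18125 intervals, with a peak in some other combination of libraries, were called mixed.

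The study mapped open chromatin in 9 ATAC-seq libraries to find the elements that control Zbtb16, the gene of the transcription factor PLZF, in innate lymphocytes. ATAC-seq uses a transposase that inserts sequencing adapters into accessible DNA, so that read pile-ups mark open regulatory DNA. Both cell types came from the thymus of C57BL/6 mice, stated to be 4 to 8 weeks old, with no engineered allele or treatment given for these libraries. NKT cells are identified in the study by a CD1d tetramer loaded with the lipid αGalCer, and its NKT thymocytes can include several developmental stages. The replicates are described as biological, but the gates used for these libraries, and whether a replicate was 1 mouse or a pool, are not given in the sources used here. Bone marrow common lymphoid progenitors (CLP, 3 libraries) and innate lymphoid cell precursors (ILCP, 2 libraries), labelled C57BL/6, served as a readout that the classes did not use. Per the methods, ILCP were sorted as cells positive for IL-7Rα, α4β7 and eGFP, and the study holds a Zbtb16 reporter strain that carries eGFP and Cre, so the ILCP were gated on a reporter.

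NKT cells carry a semi-invariant T cell receptor that recognizes lipids presented by CD1d, and they acquire effector programs of helper T cells and natural killer (NK) receptors while still in the thymus. CD4SP thymocytes are mostly conventional T cells selected on MHC class II, and they leave the thymus as naive cells. Intervals away from start sites often hold enhancers, where lineage factors such as GATA, TCF/LEF, AP-1, ROR and E proteins bind short sequence motifs.

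The defining genes of T cells were open in all 4 libraries. Of 10 T cell marker genes, 9 had a shared interval within 1 kb of a start site (Cd3e, Cd3d, Cd3g, Cd247, Cd4, Lck, Zap70, Cd2 and Lat), as had 10 of 10 housekeeping genes. The same was true of 1 of 6 B cell genes (Ebf1), 2 of 6 myeloid genes (Itgam and Spi1), 2 of 5 erythroid genes (Klf1 among them) and 0 of 5 thymic stroma genes. No library had a peak at the start of Cd79a, Cd79b, Ms4a1, Csf1r, Lyz2, Cd14, Mpo, Hba-a1, Hbb-bt, Foxn1 or Krt5. Of the 2 CD8 genes, neither had a shared interval at its start and both had some interval there. Cd8a had peaks at 0 and 0 intervals in the NKT and 1 and 2 in the CD4SP libraries, and Cd8b1 at 0 and 4 against 3 and 4. The part that other cell types had in the classes was not tested, and since cells were sorted in bulk, a peak from fewer cells of a type and a weaker peak per cell cannot be told apart.

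To show what the gained classes look like at the level of bases, the central 200 bp of 1 interval is printed for each of 6 motif families, the 3 with the largest difference between the gained classes in each direction. Each is the highest-scoring interval of its class that held the motif, lay over 1 kb from a start site and was within 20 kb of a gene on the gene lists used here. Sequences are the + strand of mm10, and capitals mark the motif on either strand. The first 3 are NKT-gained and lie in introns of Il4 (chr11:53605721-53605920), Pdcd1 (chr1:94042393-94042592) and Batf3 (chr1:191102899-191103098). The next 3 are CD4SP-gained and lie in introns of Rora (chr9:69072145-69072344), Bach1 (chr16:87728946-87729145) and Ptprc (chr1:138134431-138134630).
GATA at Il4: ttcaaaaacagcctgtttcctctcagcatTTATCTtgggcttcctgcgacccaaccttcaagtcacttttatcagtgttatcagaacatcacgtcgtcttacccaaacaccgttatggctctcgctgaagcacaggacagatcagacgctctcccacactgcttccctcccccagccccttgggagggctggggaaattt
TCF/LEF at Pdcd1: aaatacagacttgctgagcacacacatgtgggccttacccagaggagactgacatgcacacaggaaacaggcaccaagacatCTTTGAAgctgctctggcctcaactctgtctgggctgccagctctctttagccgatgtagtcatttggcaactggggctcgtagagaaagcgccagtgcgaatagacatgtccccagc
AP-1 at Batf3: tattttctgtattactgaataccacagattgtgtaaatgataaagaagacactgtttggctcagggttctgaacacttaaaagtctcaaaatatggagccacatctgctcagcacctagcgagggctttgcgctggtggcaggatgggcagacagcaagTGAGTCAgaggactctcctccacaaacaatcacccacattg
E-box at Rora: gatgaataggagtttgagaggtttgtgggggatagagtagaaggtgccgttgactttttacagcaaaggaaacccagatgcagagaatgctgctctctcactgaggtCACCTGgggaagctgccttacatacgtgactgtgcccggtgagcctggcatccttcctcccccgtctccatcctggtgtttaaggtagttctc
ETS at Bach1: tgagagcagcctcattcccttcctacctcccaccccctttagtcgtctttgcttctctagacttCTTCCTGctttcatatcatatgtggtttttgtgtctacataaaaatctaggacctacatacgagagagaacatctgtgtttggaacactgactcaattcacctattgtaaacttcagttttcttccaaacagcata
Ikaros at Ptprc: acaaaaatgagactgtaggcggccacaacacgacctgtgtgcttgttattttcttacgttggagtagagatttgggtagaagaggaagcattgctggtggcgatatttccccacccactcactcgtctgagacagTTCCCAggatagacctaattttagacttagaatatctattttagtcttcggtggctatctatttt

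Of these 6, the Bach1 interval had the highest score ranks, in the top 21.9% and 22% of the peaks of the CD4SP libraries, and it also had a peak in 2 of the 3 CLP libraries. The Pdcd1 interval ranked in the top 26% and 33.3% of the NKT libraries and had no bone marrow peak. The Batf3 interval, 5.15 kb past the gene's start, ranked in the top 63.8% and 51.4% and was open in both ILCP but no CLP libraries. The Il4 interval ranked in the top 47.8% and 49.1% and had a peak in 1 of the 2 ILCP libraries. Each of the 6 windows held its motif once.

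A further 2 windows were chosen after the values were seen. The first is from Kirrel3, a gene described below (chr9:34876247-34876446), with matches to the TCF/LEF and CAGGTG motifs in capitals. The second is the highest-scoring CD4SP-gained interval away from start sites with the NR4A motif, between genes and 47.28 kb from the nearest start site, that of Medag (chr5:149364373-149364572).
Kirrel3: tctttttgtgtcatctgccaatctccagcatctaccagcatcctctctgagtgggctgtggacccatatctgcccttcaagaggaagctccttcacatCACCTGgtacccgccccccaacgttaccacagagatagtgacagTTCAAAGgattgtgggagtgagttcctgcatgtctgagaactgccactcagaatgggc
NR4A: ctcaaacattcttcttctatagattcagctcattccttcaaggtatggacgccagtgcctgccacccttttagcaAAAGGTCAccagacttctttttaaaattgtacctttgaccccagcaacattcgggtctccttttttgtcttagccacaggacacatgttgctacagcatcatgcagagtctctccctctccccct

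The number of peaks was 33645 and 37906 in the CD4SP libraries and 34688 and 38781 in the NKT libraries. In both cell types replicate 2 had more peaks, and the groups overlapped (difference in means 959 peaks, exact two-sided permutation p = 0.667). With 2 libraries on each side no exact test can give a p below 0.333, so the class counts are a description of these libraries.

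Agreement between libraries followed cell type first and replicate number second. The share of intervals in common, as a percentage of those with a peak in either library, was 73.32% for the NKT pair and 74.42% for the CD4SP pair. Across cell types it ran from 62.78% to 69.62%, highest for the 2 replicate 2 libraries. As many as 2415 intervals had a peak in both replicate 2 libraries alone, against 269 in both replicate 1 libraries alone. Single-library intervals were most numerous in NKT replicate 2 (3122) and CD4SP replicate 2 (2597). With 1 library left out both gained classes grew. NKT-gained intervals numbered 6254 without NKT replicate 1, 4829 without NKT replicate 2, 3759 without CD4SP replicate 1 and 5305 without CD4SP replicate 2. CD4SP-gained intervals numbered 5134 without CD4SP replicate 1, 4243 without CD4SP replicate 2, 3515 without NKT replicate 1 and 4556 without NKT replicate 2.

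**Figure D1:**
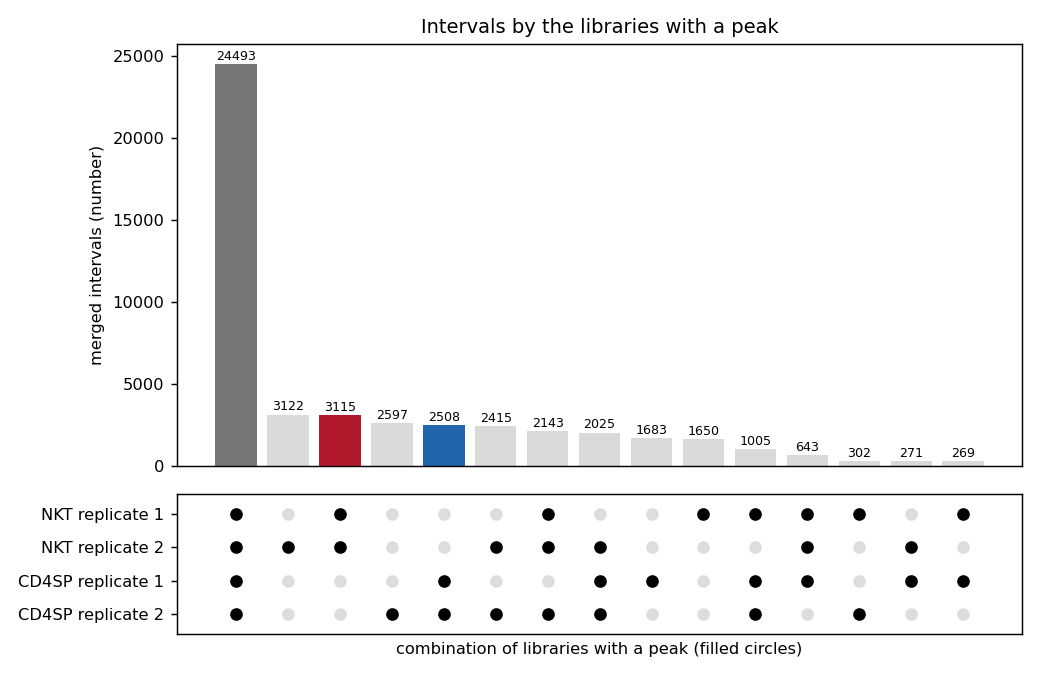
Merged intervals by the combination of the 4 libraries with a peak (bars, number of intervals; filled circles, libraries with a peak). Shared intervals (24493, dark gray) make up the largest bar, and NKT-gained (3115, red) and CD4SP-gained intervals (2508, blue) are each about as numerous as intervals seen in 1 replicate 2 library alone (3122 and 2597, light gray).

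Gained intervals were mostly of low score. Peaks were ranked by the peak caller's score within each library, from the top. The median NKT-gained interval ranked in the top 70.93% and 71.81% of the 2 NKT libraries and the median CD4SP-gained interval in the top 75.32% and 77.5% of the 2 CD4SP libraries, whereas medians of shared intervals were between 32.48% and 37.29%. Both peaks were among the higher-scoring 50% of their library at 321 (10.3%) NKT-gained and 128 (5.104%) CD4SP-gained intervals. The lowest weaker score was 120.01 in NKT-gained and 120.02 in CD4SP-gained intervals, next to the lists' minimum of 120. Just outside the class lay intervals otherwise like NKT-gained ones but with a lone CD4SP peak. The median rank of that peak was the top 85.04% (643 intervals, CD4SP replicate 1) and 77.28% (2143 intervals, CD4SP replicate 2). Within the class the median of the weaker rank was the top 79.42%. The lone NKT peaks next to the CD4SP-gained class had median ranks of 83.56% (NKT replicate 1) and 75.72% (NKT replicate 2), beside 84% within.

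The 5 highest-ranking intervals of each gained class were taken among those over 1 kb from a start site. The first NKT-gained one was in an intron of Me3, a mitochondrial malic enzyme (chr7:89711547-89713652, top 2% and 5.87%), and another was 16.63 kb from the Me3 start (chr7:89615112-89617029, top 3.39% and 11.4%). The others lay between protein-coding genes, with Slc17a6, Bnc2 and Stard3nl as the nearest protein-coding start sites. The one nearest Stard3nl (chr13:19355837-19358106) lies just past the end of the T cell receptor γ locus (chr13:19178024-19352756). Among CD4SP-gained intervals the highest-ranking were in an intron of Nsun6 (chr2:14997291-14998593, top 7.67% and 14.8%) and an exon of Jam2 (chr16:84824383-84825651, top 15.8% and 14%), followed by introns of Bach1, Fmnl2 and Slit3.

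Both gained classes were sparse at start sites. Only 200 NKT-gained intervals (6.421%, Wilson 95% interval 5.612 to 7.336) and 85 CD4SP-gained intervals (3.389%, 2.749 to 4.172) had their midpoint within 1 kb of the start of a protein-coding transcript. Among shared intervals the share was 38.09% (37.49 to 38.7). It was 12.48% (12.01 to 12.97) among mixed intervals and 24.62% (24.24 to 25.01) among all intervals. Mixed intervals also ranked low, with medians between the top 79.13% and 82.34% of a library. The part that score had in these shares was not tested. The Wilson intervals cover counting error only, and neighboring intervals are not independent. The gained classes differed by 3.031 points (1.906 to 4.148), but that difference turned on single libraries. It was -5.82 points without NKT replicate 2, 0.05766 points without CD4SP replicate 1, 6.51 points without NKT replicate 1 and 8.062 points without CD4SP replicate 2. The shares moved too, up to 11.67% of NKT-gained intervals without CD4SP replicate 2 and 11.37% of CD4SP-gained intervals without NKT replicate 2. Per library the proximal share of all peaks was 30.12% and 29.74% in NKT and 30.33% and 29.46% in CD4SP cells, which overlapped (exact permutation p = 1).

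Beyond 1 kb the gained classes were alike in distance. Between 10 and 50 kb lay 38.72% of NKT-gained, 41.19% of CD4SP-gained, 27.67% of shared and 32.68% of all intervals. Beyond 100 kb lay 17.69%, 19.42%, 8.484% and 10.87%. In the same order the median distance of distal intervals (those beyond 1 kb) was 28.54 kb, 29.75 kb, 22.99 kb and 22.77 kb. Of distal intervals, 52.04% of NKT-gained and 52.13% of CD4SP-gained ones were in introns and 44.67% and 44.74% between genes. Their median GC content over the central 200 bp was 47% in each gained class and 49% in shared intervals, and median widths were 895, 871 and 1253 bp.

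**Figure D2:**
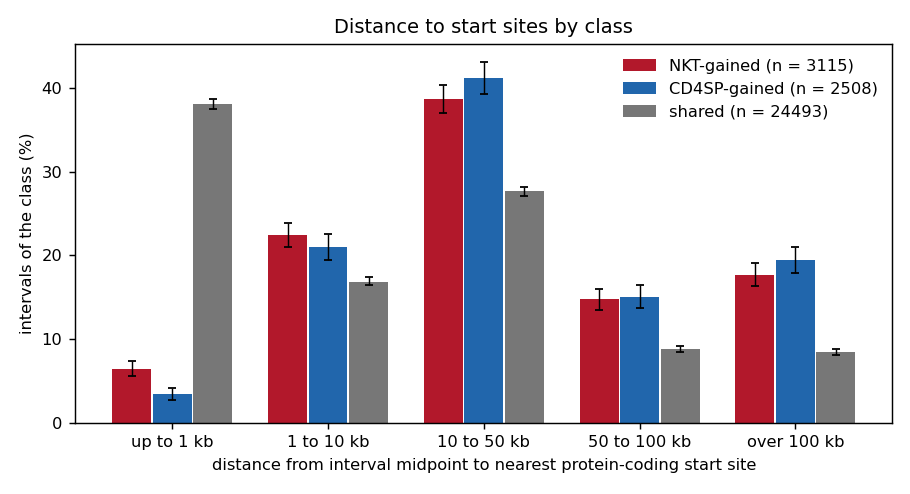
Share of each class (y axis, percent of intervals) by distance from the interval's midpoint to the nearest protein-coding start site (x axis), with Wilson 95% intervals as bars that cover counting error. Shared intervals (gray) lead within 1 kb at 38.09%, against 6.421% of NKT-gained (red) and 3.389% of CD4SP-gained (blue) intervals, and both gained classes exceed shared intervals in every bin beyond 1 kb.

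Gained intervals tended to sit beside others of their own class. Within 20 kb, 19.87% (18.51 to 21.31) of NKT-gained intervals had another NKT-gained interval and 5.104% a CD4SP-gained one. The values for CD4SP-gained intervals were 19.62% (18.11 to 21.22) for their own class and 6.659% for the other. A shared interval was within 20 kb of 50.11% of NKT-gained and 64.83% of CD4SP-gained intervals. By chromosome, NKT-gained intervals made up from 4.203% (X) to 9.302% (14) of intervals and CD4SP-gained ones from 3.368% (11) to 8.557% (18), leaving aside Y and the mitochondrial chromosome with 4 and 2 intervals.

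The 200 NKT-gained intervals near start sites belonged to 197 genes, of which 34 had a shared interval at another of their starts. Among the strongest were Slc8a1, a sodium-calcium exchanger (top 22.4% and 13.5%), Arhgap28, a GTPase-activating protein, Prkacb, a catalytic subunit of protein kinase A, and Jag1, a Notch ligand. Nkg7, a cytotoxic granule protein, was among them (top 38.6% and 36.6%). The 85 CD4SP-gained ones belonged to 82 genes, of which 33 had another shared start. The strongest was at Tnfrsf4, the costimulatory receptor OX40 (top 35.4% and 43.6%), followed by Il6st, the signaling chain gp130 (top 43.8% and 44.8%), and Cd74, the MHC class II invariant chain, was also there (top 52.2% and 60%).

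To ask whether the gained classes differed in sequence, 28 motif families other than Runx were searched in the central 200 bp of distal intervals, on both strands, as short words in which N is any base. A family was said to differ where the Wilson 95% intervals of the gained classes did not overlap and both NKT libraries lay on the same side of both CD4SP libraries in the share of all their distal peaks. The library shares contain the gained intervals themselves, and their exact permutation p is 0.333 for any such separation. By this rule 7 families were more frequent in NKT-gained and 4 in CD4SP-gained intervals, and 17 were not called.

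GATA, TCF/LEF and AP-1 motifs were more frequent in NKT-gained intervals, by 5.166, 4.986 and 4.24 points. The word AGATAA, bound by GATA3, a factor of T helper 2 and early T cells, was in 467 of 2915 distal NKT-gained intervals (16.02%, 14.73 to 17.4) and in 263 of 2423 distal CD4SP-gained ones (10.85%, 9.677 to 12.16), beside 11.15% of shared and 11.4% of all distal intervals. The share of all distal peaks with it was 12.03% and 11.28% in the NKT libraries and 10.91% and 10.63% in the CD4SP libraries. TCF/LEF (CTTTGAA or CTTTGAT), the word of TCF-1 and LEF-1, was in 19.14% (17.76 to 20.61) of NKT-gained and 14.16% (12.82 to 15.6) of CD4SP-gained intervals, beside 13.4% of all distal intervals. AP-1 (TGANTCA), bound by Fos, Jun and Batf factors, was in 12.25% (11.11 to 13.49) and 8.007% (6.991 to 9.155), beside 8.19% of all. Neither TCF/LEF nor AP-1 overlapped between the NKT libraries (14.16% and 13.82%; 8.548% and 8.433%) and the CD4SP libraries (13.17% and 12.52%; 7.76% and 7.629%).

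The other 4 families on the NKT side were rarer. ROR (TAGGTCA or TGGGTCA), the word of ROR nuclear receptors such as RORα, was in 4.631% of NKT-gained and 2.724% of CD4SP-gained intervals (4.02% of all), and forkhead (TGTTTAC) in 4.288% and 2.848% (3.22% of all). MAF (GCTGANTCA), which contains the AP-1 word, was in 2.093% and 0.6603% (1.44% of all). EGR (GCGTGGG), the word of Egr factors induced by receptor signaling, was in 2.23% and 0.9905% (1.83% of all). For ROR the library values lay close together, at 4.241% and 4% in NKT and 3.746% and 3.938% in CD4SP cells.

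On the CD4SP side the E-box CAGGTG, favored by the E proteins E2A and HEB, showed the largest difference of the 28 families in the main comparison. The ETS word CAGGAAG, given below, exceeded it without NKT replicate 1 (-8.769 against -2.237 points) and without CD4SP replicate 2 (-6.578 against -4.027). CAGGTG was in 443 of 2423 CD4SP-gained intervals (18.28%, 16.79 to 19.87) and in 362 of 2915 NKT-gained ones (12.42%, 11.27 to 13.67), beside 17% of all distal intervals. The library shares were 16.75% and 17.55% in CD4SP and 15.21% and 16.61% in NKT cells. The CAGCTG and CAGATG forms were not called (13.91% and 17.42% of CD4SP-gained, 11.63% and 18.9% of NKT-gained, 13.6% and 17.1% of all distal intervals). Ikaros (TGGGAA) was in 13.7% of CD4SP-gained and 10.39% of NKT-gained intervals (13.7% of all).

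The NR4A word AAAGGTCA, bound by the orphan nuclear receptors that T cell receptor signaling induces, was in 78 CD4SP-gained intervals (3.219%, 2.587 to 3.999) and 22 NKT-gained ones (0.7547%, 0.4989 to 1.14), beside 1.3% of all distal intervals. Its share of all distal peaks was 1.425% and 1.369% in CD4SP and 1.031% and 0.9432% in NKT libraries. NF-kB (GGANTTTCC) was in 1.444% of CD4SP-gained and 0.3774% of NKT-gained intervals (0.822% of all). Thus of the words tied to receptor signaling in this set, EGR and AP-1 were more frequent on the NKT side, NR4A and NF-kB on the CD4SP side, and NFAT (TGGAAAA) was not called at 5.66% and 4.416% in NKT-gained and CD4SP-gained intervals (4.35% of all). The NFAT difference of 1.244 points kept its sign under all 10 alternative settings and was called under 3. It was called at 1.511 without CD4SP replicate 1 and 1.59 without NKT replicate 2. Averaged over GC bins it was called at 1.388, by a looser criterion given below.

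Several families with known roles in these cells were not called in the main comparison. T-box (GGTGTGA), the word of T-bet and Eomes, was in 3.636% (3.016 to 4.379) of NKT-gained and 3.302% (2.661 to 4.09) of CD4SP-gained intervals, a difference of 0.3347 points (-0.669 to 1.316), beside 3.34% of all. The ETS word CAGGAAG was in 20.69% and 25.79% (21.5% of all), with intervals that did not overlap, but its library shares did overlap (22.57% and 20.54% in NKT, 23.33% and 21.41% in CD4SP) and were higher in replicate 1 of each. Within each replicate number the NKT share was below the CD4SP share (exact permutation p = 0.5 within replicate numbers, the smallest possible). Its difference of -5.108 points was -0.3328 without CD4SP replicate 1 and -0.4517 without NKT replicate 2, and it was called at -6.578 without CD4SP replicate 2 and at -8.769 without NKT replicate 1. CTCF shares also went with replicate number, at 8.711% and 8.713% of distal peaks in the replicate 1 libraries and 11.1% and 11.5% in the replicate 2 libraries (11% of all distal intervals; the words AGGGGGCGC, AGGGGGCAG, AGGTGGCGC, AGGTGGCAG, AGATGGCGC, AGATGGCAG, AGAGGGCGC and AGAGGGCAG). The CTCF difference of 0.7759 points turned with the library left out, from -4.409 without CD4SP replicate 1 and -3.55 without NKT replicate 2 to 2.934 and 5.74, both called, without CD4SP replicate 2 and NKT replicate 1. Further families that were not called are given with their share in NKT-gained, CD4SP-gained and all distal intervals. STAT (TTCNNNGAA) was in 6.038%, 7.47% and 6.53%, and IRF (GAAANNGAA) in 8.954%, 9.162% and 8.41%. MYB (AACNGCC) was in 7.89%, 6.851% and 8.03%, KLF (CCACACCC) in 3.499%, 2.27% and 2.78%, and SP (GGGCGGG) in 3.293%, 2.806% and 4.62%. NF-Y (AGCCAAT) was in 1.818%, 2.889% and 2.51%, and the ETS word CCGGAAG in 1.784%, 1.692% and 2.51%. YY1 (AAGATGGC), NRF1 (GCGCATGC), POU (ATGCAAAT) and CRE (TGACGTCA) were in 0.7547%, 0.1715%, 0.9262% and 0.2744% of NKT-gained, 0.9492%, 0.5778%, 0.9492% and 0.6191% of CD4SP-gained and 1.15%, 0.492%, 0.982% and 0.454% of all distal intervals.

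Averaging over 5 bins of GC content left each of the 11 differences on its side, with 5.573 points for GATA, 5.457 for TCF/LEF, 4.381 for AP-1, -6.193 for CAGGTG and -2.441 for NR4A. GATA, TCF/LEF, AP-1, MAF, CAGGTG and NR4A were called under all 10 alternative settings tried, including with each library left out. Library shares were computed anew only with an equal number of peaks or the higher-scoring 50% of peaks. In the other settings the library part of the rule could not fail for the 11 families, and only the class shares were tried again. ROR was called under 6, forkhead under 5, Ikaros under 7 and EGR and NF-kB under 8. Of the families not called, NRF1 was called under 5 of the 10 settings, KLF under 4, NFAT under 3, NF-Y, CTCF and the ETS word CAGGAAG under 2 settings each, and SP and the E-box form CAGCTG under 1 setting each. Each of the 11 kept its direction with any 1 library left out, while the sizes of all but MAF moved by over 1.5 times. Without NKT replicate 1 the difference was 2.137 points for GATA, 3.012 for TCF/LEF, 2.057 for AP-1, 0.9262 for ROR, 0.4169 for forkhead, -2.237 for CAGGTG and -1.762 for Ikaros. Without NKT replicate 2 it was 0.4882 for EGR, -1.446 for NR4A and -0.7092 for NF-kB. Without CD4SP replicate 1 it was 1.077 for ROR and -4.973 for Ikaros, and without CD4SP replicate 2 it was 2.551 for GATA and -0.6921 for NF-kB. With only the higher-scoring 50% of peaks, 4 families were called on the NKT and 2 on the CD4SP side.

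**Figure D3:**
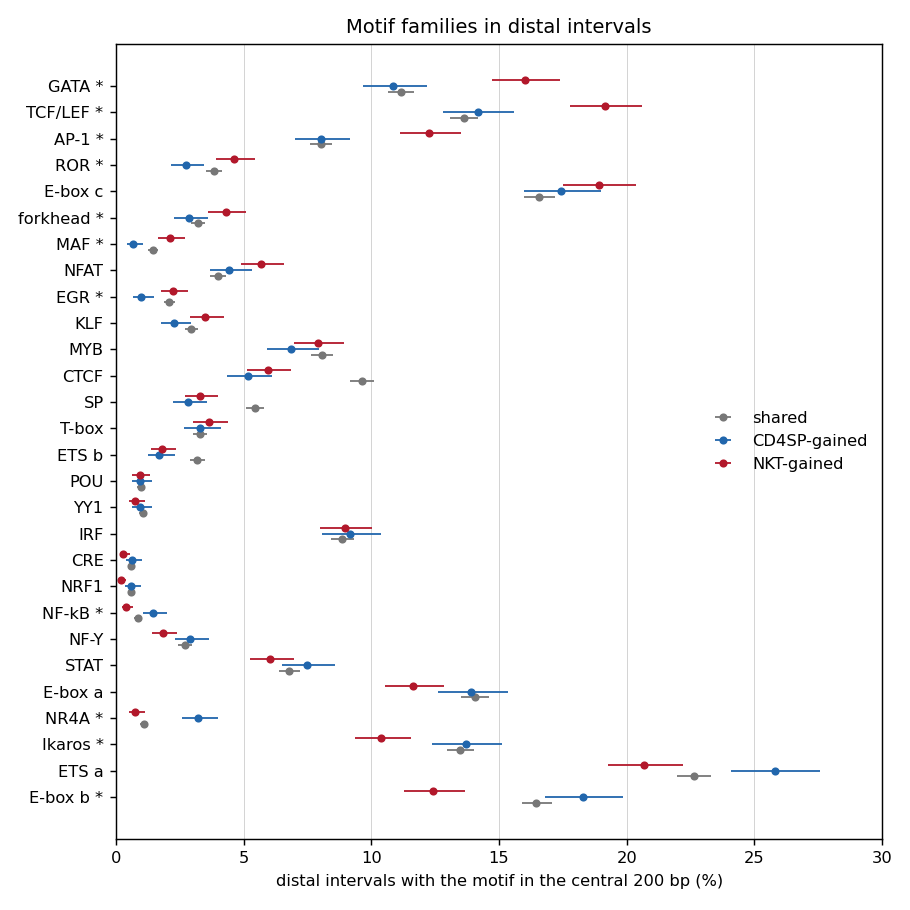
Share of distal intervals with each motif family in the central 200 bp (x axis, percent; points with Wilson 95% intervals) for NKT-gained (red), CD4SP-gained (blue) and shared intervals (gray), ordered by the difference between the gained classes; asterisks mark families called different. E-box b is the word CAGGTG, E-box a and c are the CAGCTG form and the form searched as CAGATG, and ETS a is the word CAGGAAG, with ETS b the other ETS form. GATA (16.02% and 10.85%) stands at the NKT end and CAGGTG (12.42% and 18.28%) at the CD4SP end.

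**Figure D4:**
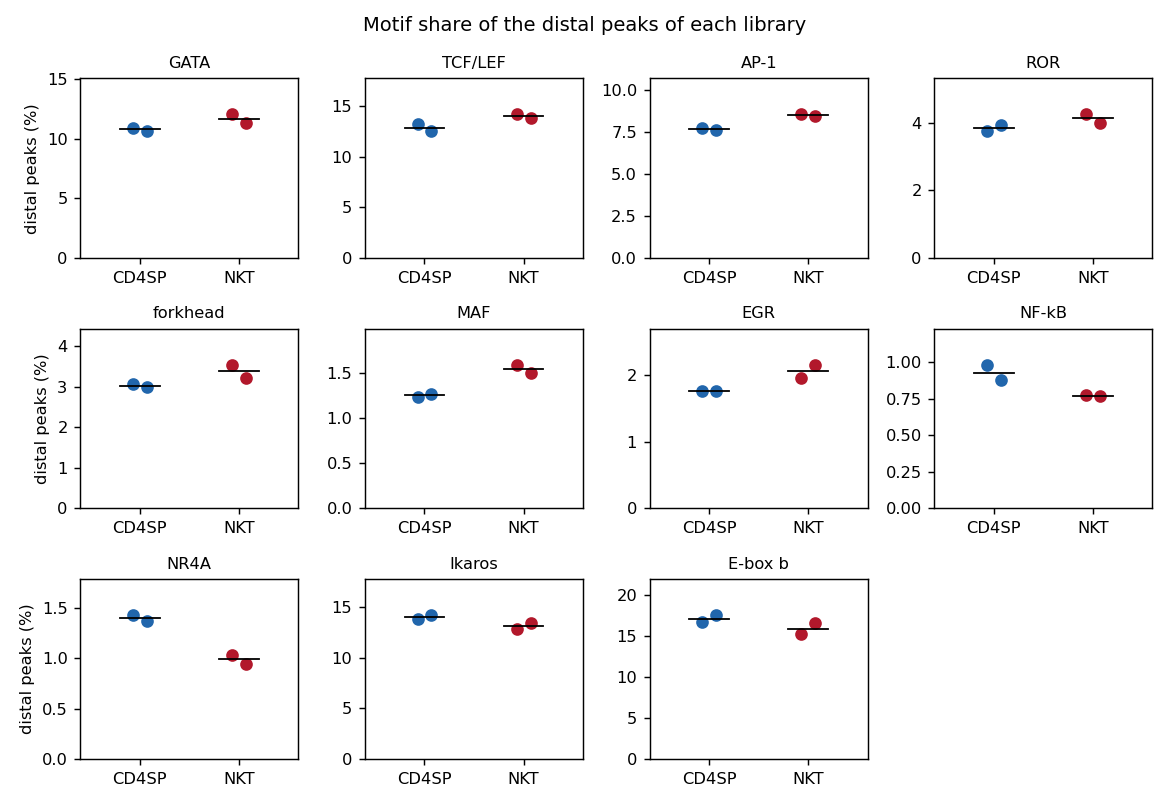
Share of the distal peaks of each library (y axes, percent, from 0) with the motif of each of the 11 families called different; points are libraries, replicate 1 left, and bars the means of 2. The groups do not overlap in any panel, which the calling rule required, and the gaps are small next to those between classes, as for GATA (CD4SP 10.91% and 10.63%, NKT 12.03% and 11.28%). E-box b is CAGGTG.

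Across genes, an interval was counted for a protein-coding gene when it overlapped the gene or the 20 kb on either side. Of 21950 genes, 2555 (11.6%) had at least 1 NKT-gained interval, 1862 (8.48%) a CD4SP-gained one and 14568 (66.4%) a shared one, and 391 had both gained kinds. With 1 library left out these counts rose to as many as 5444 genes (without NKT replicate 1) and 4264 genes (without CD4SP replicate 1). Among the 16527 genes with any interval these shares were 15.5% and 11.3%, which are the values to read listed genes against. Listed genes had more intervals than most (medians per list of 2 to 8, against 2 over all genes), and a gene with more intervals has more chances to hold a gained one.

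Kirrel3, a cell adhesion molecule of the immunoglobulin superfamily known for its part in synapse formation, had the most NKT-gained intervals among genes under 1 Mb. Of the 9 intervals in its 550.8 kb, 8 were NKT-gained. NKT replicate 1 had a peak at 8 and NKT replicate 2 at 9, and neither CD4SP library had a peak at any. The strongest, printed above (chr9:34875728-34876965), ranked in the top 11% and 23% of the NKT libraries, and 1 of the 8 lay at a start site of the gene (chr9:35016410-35017511, top 32.6% and 34.3%). Of the 8, 3 had a peak in each ILCP library and 1, 2 and 2 in the CLP libraries. Just 1 was open in both ILCP but no CLP libraries, and 5 were open in none of the 5 bone marrow libraries.

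Other genes with many NKT-gained intervals were Fbxl17, an F-box protein (6, with 0 CD4SP-gained), Ptprb, a receptor tyrosine phosphatase (5 and 0), Rin2 (5 and 0), Klf12, a Krüppel-like factor (5 and 0), Hhat (5 and 2) and 2900026A02Rik (5 and 1). At Ptprb the NKT libraries had a peak at 5 and 6 of 7 intervals and the CD4SP libraries at 0 and 1. At Klf12 they had 12 and 11 of 12 against 5 and 4. The highest counts were at Fgfr2 (12) and Gm20388 (10), whose annotated models span 2961 and 4435 kb and take in other genes, so their counts do not belong to 1 gene. Fgfr2 and Gm20388 had 0 such intervals when each interval was given to the gene of its nearest start site, whereas Kirrel3 kept a count of 8.

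On the CD4SP side the gene with most gained intervals was Satb1, a chromatin organizer of thymocytes, with 8 against 1 NKT-gained. Of its 17 intervals, the CD4SP libraries had a peak at 13 and 15 and the NKT libraries at 5 and 5. The strongest (chr17:51735036-51737537, top 11.2% and 37.2%) lay over the gene's last exon. Fmnl2, a formin that shapes the actin cytoskeleton, had 7 (0 NKT-gained), with a peak at 14 and 15 of 16 intervals in CD4SP against 5 and 6 in NKT libraries. Ets1, an ETS factor needed for T cell development, had 6 (0), with 19 and 20 of 22 intervals against 12 and 12. Fanci and Trio, a DNA repair factor and a guanine nucleotide exchange factor, had 6 each, Fhit had 7, and Lrmp and Trpm1 had 5 each, all with 0 NKT-gained. The 7 counted for Gm20696, a model of 409.3 kb that overlaps Foxp1, include the 6 of Foxp1 given below. Without CD4SP replicate 1 the count at Satb1 was 13.

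Genes of the conventional thymocyte program held CD4SP-gained intervals at 11 of 16 members (68.8%) and NKT-gained ones at 3 (18.8%: Lef1, Ets2 and Satb1). These were 30 of their 162 intervals (18.5%), beside 5.2% of all intervals, and 3 NKT-gained ones (1.85%). Satb1 gave 8 of the 30, Foxp1 6, and Lef1 and Bach2 4 each. Zbtb7b, the gene of ThPOK, the factor of the CD4 lineage, had 2 (top 46.7% and 49.8% for the stronger, 12.5 kb past its start). Lef1, the partner of TCF-1, had its strongest 49.3 kb past its start (top 30.2% and 32.2%). Single intervals lay at Rag1, Rag2, Dntt, Foxo1, Themis and Tcf7. Rag1 and Rag2 encode the recombinase and Dntt the polymerase that adds bases at receptor joints. These genes are active in earlier thymocytes, and Cd8a, given above, also had its peaks in the CD4SP libraries alone; the part of other thymocytes in these intervals was not tested. The Dntt interval ranked in the top 49.4% and 61.7% and the Rag1 interval in the top 90.4% and 79.7%. The count of members ranged from 6 (higher-scoring 50% of peaks) to 12 over the alternative settings. Among the 10 genes of the housekeeping list, 3 held a CD4SP-gained interval (Ptprc with 4, Hprt with 2 and B2m with 1) and 0 an NKT-gained one. These were 7 of 53 intervals (13.2%), also above the 5.2% of all intervals, and Ptprc, the gene of CD45, is a leukocyte gene.

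Costimulatory and inhibitory receptors also leaned to the CD4SP side, with 7 of 12 (58.3%) against 1 (8.33%), or 9 (9.78%) and 2 (2.17%) of their 92 intervals. Ctla4, an inhibitory receptor, had 4 CD4SP-gained intervals and Cd28, its activating counterpart, had 1. The interval at the start of Tnfrsf4 (top 35.4% and 43.6%) was also counted for its neighbor Tnfrsf18, the gene of GITR, and single intervals lay at Tnfrsf9, Cd27 and Havcr2. The exception was Pdcd1, the gene of PD-1, with 2 NKT-gained intervals and 0 CD4SP-gained ones. At Pdcd1 the NKT libraries had a peak at 8 and 7 of 9 intervals and the CD4SP libraries at 3 and 3. Over the alternative settings the counts of genes ranged from 2 to 9 on the CD4SP and from 1 to 5 on the NKT side, and with only the higher-scoring 50% of peaks they were 2 and 3.

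Effector lineage factors were mixed, with 5 of 14 (35.7%) holding NKT-gained and 4 (28.6%) CD4SP-gained intervals. By interval these were 8 (8.33%) and 6 (6.25%) of 96, beside 6.46% and 5.2% of all intervals. Maf had 1 NKT-gained interval (top 44.1% and 91.1%) and Nfil3 had 2. Rora held 3 NKT-gained and 2 CD4SP-gained intervals and Prdm1, the gene of Blimp-1, 1 of each. Zeb2 had 1 CD4SP-gained interval and Runx3 had 2. At Runx3 the CD4SP libraries had a peak at 6 and 12 of 14 intervals and the NKT libraries at 3 and 12. Tbx21 and Gata3 had neither kind, with 1 and 5 shared intervals.

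Of 18 cytokine and cytotoxic effector genes, 3 (16.7%) held NKT-gained intervals and 1 (5.56%) a CD4SP-gained one, beside 15.5% and 11.3% of genes with any interval. By interval, 4 of 48 (8.33%) were NKT-gained and 1 (2.08%) was CD4SP-gained. Il17a, a cytokine of T helper 17 cells, had 1 NKT-gained interval of high rank, 9.66 kb past its start (chr1:20740036-20741097, top 12.9% and 25.1%), open in both ILCP and no CLP library. Il4 had 3, of which 2 were also counted for its neighbor Il13. These lay 12.8 kb (top 47.8% and 49.1%) and 1.26 kb past the Il4 start, and at -8.3 kb. Ifng had neither kind, with a peak at 2 and 3 of its 4 intervals in NKT and at 2 and 1 in CD4SP libraries, and Csf2, the gene of GM-CSF, had the 1 CD4SP-gained interval.

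Cytokine receptors had NKT-gained intervals at 4 of 18 (22.2%) and CD4SP-gained ones at 3 (16.7%), but by interval these were 3 (2.46%) and 6 (4.92%) of 122, beside 6.46% and 5.2% of all intervals. Il17rb, the receptor for IL-25, Tgfbr2 and the neighbors Il18r1 and Il1rl1, which share 1 interval, were on the NKT side. Il2ra (2 intervals), Il12rb2 (1) and Ifngr1 (3) were on the CD4SP side.

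Homing and NK receptor genes held gained intervals of both kinds. Of 18 homing and adhesion genes, 9 (50%) held NKT-gained and 6 (33.3%) CD4SP-gained intervals, and Itga4, Cxcr6 and Itgb7 held both. These genes had a median of 7 intervals, and 11 of their 127 intervals (8.66%) were NKT-gained and 6 (4.72%) CD4SP-gained, beside 6.46% and 5.2% of all intervals. Cxcr6, a chemokine receptor of liver and tissue NKT cells, had 2 NKT-gained intervals past its start (top 38.6% and 36% for the stronger) and 1 CD4SP-gained interval upstream, at -1.18 kb. Itga1, the collagen-binding integrin CD49a, had 2 (top 28.5% and 32.9% for the stronger), and Ccr4, Ccr6, Itgae, Cxcr4 and S1pr1 had 1 each. Ccr9 and Ccr2 had 1 CD4SP-gained interval each.

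Of 14 NK receptor genes, 3 (21.4%) held NKT-gained intervals (Cd160, Klrg1 and Klrb1a) and 5 (35.7%) CD4SP-gained ones (Klrb1c, Klrb1b, Klre1, Klrd1 and Klra7). By interval these were 4 (9.09%) and 5 (11.4%) of 44, beside 6.46% and 5.2% of all intervals. The latter were 5 separate intervals, as Klrb1c and Klrb1b, and Klre1 and Klrd1, each shared 1. The strongest NKT-gained one lay at -18.2 kb from the start of Cd160 (top 33.8% and 47.4%) and the strongest CD4SP-gained one 5.35 kb past the start of Klre1 (top 38.3% and 57.7%). In the SLAM group, whose receptors act in NKT selection, Slamf6 had 2 NKT-gained intervals and Fyn, a kinase of that pathway, 2 CD4SP-gained ones among 9 genes, each 4.35% of their 46 intervals.

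Of 13 AP-1 and related factors, 3 (23.1%) held NKT-gained and 3 (23.1%) CD4SP-gained intervals, or 4 (4.55%) and 7 (7.95%) of their 88 intervals. Batf3 (2 intervals, 1 at its start), Jund and Fos held NKT-gained and Bach2, Bach1 and Nfe2l2 CD4SP-gained intervals. Of 7 E protein and Id genes only Tcf4 held a gained interval, 3 of the CD4SP kind (7.89% of 38 intervals). Of 10 genes of the agonist signal, Nfkbid held an NKT-gained and Nfatc1 and Cd5 CD4SP-gained intervals, while Egr1, Egr2 and Nr4a1 held neither. These were 1 (1.49%) and 2 (2.99%) of 67 intervals. Marker lists gave Cd247 and Cd4 (NKT-gained, of 10 T cell genes), Itgam (NKT-gained, of 6 myeloid genes), Hbb-bt (NKT-gained, of 5 erythroid genes), Cd79a (CD4SP-gained, of 6 B cell genes) and none of 5 stroma genes. Of the CD8 genes, Cd8a had a CD4SP-gained interval 3.56 kb past its start (top 51.6% and 49%).

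**Figure D5:**
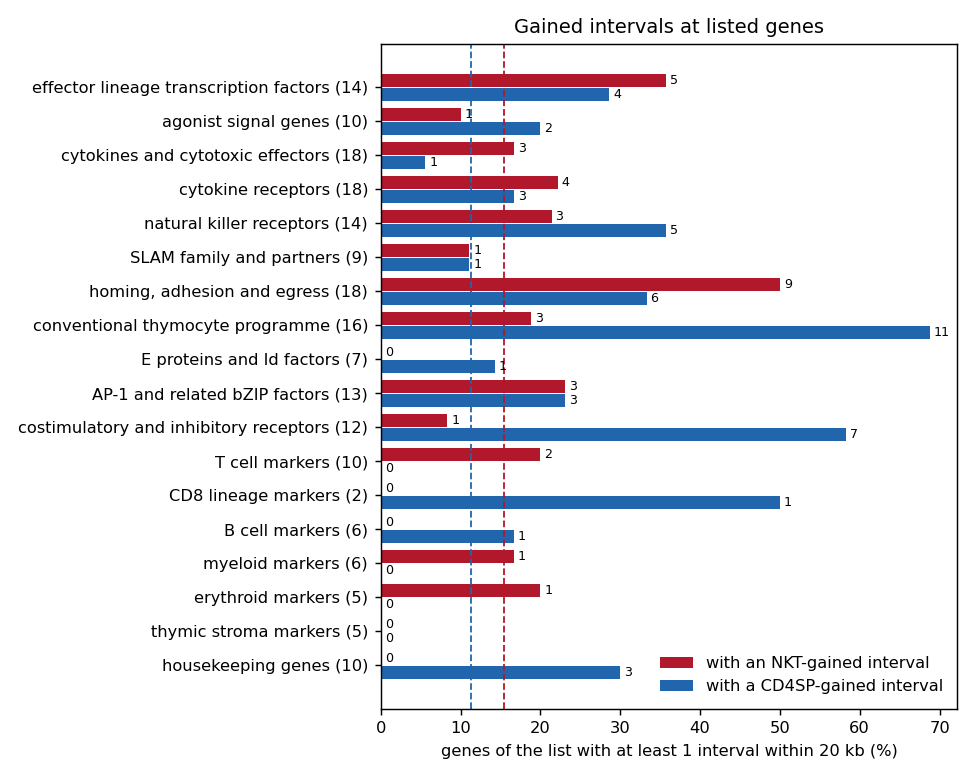
Percentage of the genes of each list (y axis, number of genes in parentheses) with at least 1 NKT-gained (red) or CD4SP-gained (blue) interval in the gene or within 20 kb (x axis); numbers beside the bars count genes. Dashed lines mark all genes with any interval (15.5% red, 11.3% blue). The conventional thymocyte program (11 of 16 genes) and the costimulatory receptors (7 of 12) have the highest CD4SP percentages and the homing genes (9 of 18) the highest NKT percentage; bars do not allow for the number of intervals per gene.

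The T cell receptor α and δ locus differed between the cell types in the stretch from Trav11 to Traj18. The invariant chain of NKT cells joins Trav11 (Vα14) to Traj18, a recombination that deletes the DNA between them. In the 680.9 kb from Trav11 to Traj18 (chr14:53519860-54200776) lay 27 intervals, at which CD4SP libraries had a peak at 14 and 25 and NKT libraries at 2 and 8. Of these 27, 6 were CD4SP-gained, 0 NKT-gained and 2 shared, beside 5.2%, 6.46% and 50.8% of all intervals. Before Trav11 the counts were 5 and 6 in CD4SP and 4 and 5 in NKT libraries over 6 intervals, and after Traj18 they were 2 and 4 against 2 and 2 over 5. The CD4SP-gained intervals of the stretch lay nearest to Trav17, Trdv2-1, Trdv4, Trdj2, Trdc and Traj39, so δ segments were among them. The part that the deletion had in these counts was not tested. The only NKT-gained interval of the whole Tra and Trd locus lay after Traj18. At the Trb locus 15 intervals were shared, 1 was CD4SP-gained, 0 were NKT-gained and 12 were mixed, with a peak at 23 and 23 of them in CD4SP and at 20 and 17 in NKT libraries. At the Trg locus 2 intervals were shared, 1 was NKT-gained, 0 were CD4SP-gained and 4 were mixed, with a peak at 4 and 2 in CD4SP and at 6 and 5 in NKT libraries.

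In the bone marrow libraries, which the classes did not use, the gained classes parted by cell type. Of NKT-gained intervals 40.32% and 39.36% had a peak in the ILCP libraries, and of CD4SP-gained intervals 5.104% and 5.064%. Shared intervals were above both, at 57.36% and 56.09%. In the CLP libraries the values were 14.96%, 33.32% and 32.62% against 7.815%, 20.53% and 19.34%, beside 46.53%, 70.97% and 70.04% of shared intervals. The excess of NKT-gained over CD4SP-gained intervals was therefore 34.76 ± 0.6528 points (SD, n = 2) in ILCP and 11.07 ± 3.408 points (n = 3) in CLP libraries. The difference of 23.69 points had an exact two-sided permutation p of 0.1, the smallest that 2 against 3 libraries allow, and leaving out any 1 library left it between 21.72 and 24.79.

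NKT-gained intervals also had bone marrow peaks more often than CD4SP-gained ones among higher-scoring intervals and on both sides of the 1 kb line. Where both peaks were among the higher-scoring 50% of their library, 57.63% and 56.07% of 321 NKT-gained intervals had an ILCP peak, against 6.25% and 6.25% of 128 CD4SP-gained ones, and 18.69%, 34.58% and 34.58% had a CLP peak, against 9.375%, 23.44% and 21.88%. Among distal intervals the ILCP shares were 39.21% and 38.08% against 4.87% and 4.787%, and the CLP shares 13.41%, 30.84% and 30.19% against 7.553%, 19.6% and 18.45%. Near start sites the ILCP shares were 56.5% and 58% against 11.76% and 12.94%. There the CLP shares were 37.5%, 69.5% and 68% against 15.29%, 47.06% and 44.71%, so that CLP replicates 2 and 3 had a peak at more of the NKT-gained intervals than either ILCP library.

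Peaks in both ILCP but no CLP libraries were found at 431 NKT-gained intervals (13.84%, 12.67 to 15.09), 17 CD4SP-gained intervals (0.6778%, 0.4236 to 1.083) and 3.903% of shared intervals. The reverse, every CLP and no ILCP library, was found at 1.445%, 4.825% and 3.47%. No bone marrow library had a peak at 44.82% of NKT-gained, 75.44% of CD4SP-gained and 20.51% of shared intervals. Il17a, Il17rb, Nfil3, Pdcd1, Cxcr6, Itga4, Batf3 and Ptprb (2) each held NKT-gained intervals of the ILCP and not CLP kind. Kirrel3, Fbxl17, Rin2, Hhat and Klf12 did as well. No bone marrow library had a peak at the NKT-gained intervals of Il13, Maf, Prdm1, Klrb1a, Slamf6, Ccr4, Ccr6, Itgae, Itga1, Fos and Jund, among others.

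Within the NKT-gained class, 6 of 28 families had Wilson intervals that did not overlap between 2 of 3 subsets formed by the bone marrow libraries. Of the 425 distal NKT-gained intervals open in both ILCP and no CLP library, 31.53% (27.29 to 36.1) held the TCF/LEF word, against 21% (18.92 to 23.25) of the 1357 open in no bone marrow library and 9.732% (6.861 to 13.63) of the 298 open in all 5. GATA followed the same order, at 21.88% (18.21 to 26.06), 16.36% (14.49 to 18.42) and 11.07% (7.995 to 15.14). AP-1 did not, at 8.706% (6.382 to 11.77), 13.78% (12.05 to 15.72) and 12.08% (8.855 to 16.27), nor did NFAT at 3.294% (1.972 to 5.453), 7.222% (5.962 to 8.723) and 4.698% (2.819 to 7.73). In the same order, the ETS word CAGGAAG was in 13.88% (10.92 to 17.49), 20.49% (18.42 to 22.72) and 23.49% (19.03 to 28.62), and the E-box CAGCTG in 9.882% (7.394 to 13.09), 10.1% (8.604 to 11.81) and 21.14% (16.89 to 26.13). These subsets were formed from called peaks only, and the differences in motif share between them were not tested over samples.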

How the data were processed

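Open chromatin was measured by ATAC-seq in sorted NKT and CD4SP thymocytes (2 libraries each), with bone marrow CLP and ILCP libraries as a readout. The authors aligned reads of 50 bp to mm10 with Bowtie, allowing 2 mismatches, and called peaks with MACS in each library; the submitters' processing notes also name Picard and HOMER. MACS version and settings are not given in the sources used here. Each deposited list holds, per peak, a position and a score of the peak caller, with a minimum of 120. The study's methods give 1 range of sequenced reads for the ATAC-seq libraries but no depth for each, so scores were ranked within libraries only.

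Groups came from the sample titles. Peaks of the 4 libraries were merged (1 bp overlap), and intervals were placed on GENCODE M21 (21950 protein-coding genes, 54368 start sites) and on the RefSeq sequence of GRCm38 (mm10), in which no peak ran past a chromosome's end, using Python 3.11.15, pandas 2.3.3, numpy 2.4.6, scipy 1.17.1 and pysam 0.24.0. Libraries were compared by exact two-sided permutation of means. Classes, motif shares and gene counts are descriptions with Wilson 95% intervals. Classification and motif search were tested on simulated data. The members, 18 gene lists and 28 motif families were chosen with earlier results of these data known. Genes named are the 10 with most gained intervals of each kind within 20 kb, ties from the shortest gene and passing over a gene sharing most of them with one already taken, and listed genes, of which 191 of 191 were found; named regions are the 5 distal intervals of each class with the highest rank. The Zbtb16 locus, the Runx1 libraries and Runx motifs were not analysed here. Alternatives covered peak number, score, overlap, distance, window, GC, gene reach and each library left out. Some listed genes are not reported here.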

Additional observations from a re-analysis of the deposited data

How the results depend on the processing

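The class sizes depended on the libraries and on the score cut, and the direction of the 11 called motif differences did not under the 10 alternatives run. With an equal number of peaks in each library, 52.63% of gained intervals were NKT-gained and 39.84% of shared intervals were proximal; a difference in peaks per library has no value there. The per-library difference of SP and CTCF shares then changed sign, to 0.09064 and -0.1172 points. With the higher-scoring 50% of peaks there were 1379 NKT-gained, 1120 CD4SP-gained and 12616 shared intervals, of which 9.935%, 6.607% and 53.99% were proximal, 4 and 2 motif families were called, and 1297 and 953 genes had a gained interval. Where peaks had to cover 50% of an interval, 37.45% of shared intervals were proximal. In the order NKT-gained, CD4SP-gained and shared, the proximal share was 5.104%, 2.552% and 35.84% within 0.5 kb of a start site, 9.888%, 6.419% and 40.76% within 2 kb, 18.14%, 15.15% and 47.23% within 5 kb, and 12.17%, 9.131% and 44.09% with the starts of all annotated transcripts. Genes with a gained interval numbered 1473 and 1097 with no flank and 4074 and 2918 with 50 kb.

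Leaving out each library in turn gave 3759 to 6254 NKT-gained and 3515 to 5134 CD4SP-gained intervals, and an NKT share of gained intervals of 42.27% (without CD4SP replicate 1) to 64.02% (without NKT replicate 1). The proximal share was 5.55% to 11.67% of NKT-gained, 3.499% to 11.37% of CD4SP-gained and 36.51% to 37.2% of shared intervals, and the difference between the gained classes -5.82 (without NKT replicate 2) to 8.062 points (without CD4SP replicate 2). Genes numbered 2950 to 5444 and 2445 to 4264. The cause was not tested, beyond the construction that a class then needs 1 library fewer.

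The replicate numbers are not stated to pair the libraries. With the replicate block the difference in peaks stayed 959 and the exact permutation p was 0.5, the smallest it allows. The shares of 18 of 28 motif families did not overlap between NKT and CD4SP libraries. That count makes no use of the block, so the block could not change it. Each such separation has an exact permutation p of 0.333 without the block. Leaving gene models over 1 Mb out of the ranking, chosen after seeing the data, removed 59 models and left largest counts of 8 and 8. The depth of each library is not given, so an interval without a peak may be open below the score minimum of 120, and the 2 libraries of each cell type limit what can be tested.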
